A study of Mus musculus with 2 samples.

Results

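The genes described here are 34 immediate early and NF-kB feedback genes, taken by symbol from the 32285 genes counted in splenic natural killer (NK) cells. All 34 symbols were found in the feature list, and all 34 had UMIs (unique molecular identifiers, each marking 1 captured RNA molecule) in both libraries. NK cells were taken by flow cytometry from the spleens of normal mice (control) and of mice under dietary restriction (DR), and 10x Genomics droplet libraries that read the 3' end of each transcript were made from them. A single library was made per group, so no difference between groups has a replicate check, no test was possible, and the intervals below cover counting error only. Strain, age, the number of mice, pooling, the length of the diet and the sorting gate are not given in the labels.

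The control library held 5702 barcodes with a median of 7152 UMIs, and the DR library 6287 with a median of 5782; 13 barcodes occurred in both. After filtering, 5220 control and 5810 DR cells were clustered without the 34 genes, so that no cell class was defined by them. NK-like cells, from clusters in which 8 or 10 of the 10 NK markers met the naming rule given below, numbered 4705 in control and 4516 in DR. ILC1-like cells (innate lymphoid cells carrying Il7r and Cxcr6) numbered 296 and 411, B-like cells 120 and 438, and T-like cells 4 and 312. The remaining 95 and 133 cells stayed unnamed; among them were 39 and 29 cells of a shallow cluster (median 1482 UMIs) with all 10 NK markers but none among its leading genes, where Jun was. Most control NK-like cells lay in a Cx3cr1-led cluster (40.3%) and a Ccl4-led cluster (24.97%), whereas most DR NK-like cells lay in a Ccr2-led cluster (31.8%) and a Gm10522-led cluster (31.1%). The summed level of 8 B cell markers in NK-like cells was 180 CPM (UMIs per 1000000 UMIs of the summed cells) in control and 657 CPM in DR. CPM is not scaled by transcript length, so levels are compared between cells and not between genes.

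Immediate early genes are transcribed within minutes of a signal, without new protein synthesis, by factors that already wait in the cell. Receptor signals reach them through MAP kinases acting on serum response factor, through CREB and through calcium. NF-kB signals induce their own inhibitors: Nfkbia encodes IkBa, which returns NF-kB to the cytoplasm, and Tnfaip3 encodes A20, an enzyme that edits ubiquitin on signalling complexes. In NK cells these genes are known as readouts of activating receptor and cytokine signals. Tissue dissociation and sorting also induce them. The 34 genes comprise 8 AP-1 and partner factors, 3 EGR and 3 NR4A transcription factors, 6 further nuclear genes, 3 MAP kinase phosphatases, 2 RNA decay factors, 5 NF-kB genes, 3 stress and survival genes, and the surface protein gene Cd69.

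Promoter sequence was available for 29 of the 34 genes, as 41 annotated starts in RefSeq on build GRCm38.p6. The 250 bases before the start are shown for 5 genes that carry the results below: Nr4a1 and Nr4a3, found together in more cells than independence gives; Btg2, higher in Itgam-only NK cells; and Nfkbia and Tnfaip3, both higher in ILC1-like than in NK-like cells. Sequences run 5' to 3' on the gene's strand, and capitals mark matches to the motifs listed after them, other than the TATA box. Nr4a1 lies at chr15:101266596-101266845 (+), Nr4a3 at chr4:48045055-48045304 (+), Btg2 at chr1:134079156-134079405 (-), Nfkbia at chr12:55492648-55492897 (-) and Tnfaip3, 1 of whose 2 starts is shown, at chr10:19015411-19015660 (-).
Nr4a1: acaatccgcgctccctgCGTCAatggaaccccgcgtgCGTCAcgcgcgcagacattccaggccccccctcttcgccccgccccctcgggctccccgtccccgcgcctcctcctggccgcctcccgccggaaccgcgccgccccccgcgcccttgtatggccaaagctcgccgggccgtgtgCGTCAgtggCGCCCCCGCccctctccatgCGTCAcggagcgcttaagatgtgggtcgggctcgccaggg
Nr4a3: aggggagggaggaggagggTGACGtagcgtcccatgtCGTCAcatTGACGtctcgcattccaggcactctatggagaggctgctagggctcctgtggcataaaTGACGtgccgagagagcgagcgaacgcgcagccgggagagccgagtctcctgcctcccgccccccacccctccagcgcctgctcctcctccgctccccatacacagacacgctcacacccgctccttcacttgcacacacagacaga
Btg2: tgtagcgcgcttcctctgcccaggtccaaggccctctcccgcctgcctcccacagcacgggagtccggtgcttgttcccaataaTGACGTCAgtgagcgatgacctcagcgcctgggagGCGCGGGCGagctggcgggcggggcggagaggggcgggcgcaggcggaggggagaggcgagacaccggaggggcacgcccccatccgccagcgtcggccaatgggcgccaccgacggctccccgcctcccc
Nfkbia: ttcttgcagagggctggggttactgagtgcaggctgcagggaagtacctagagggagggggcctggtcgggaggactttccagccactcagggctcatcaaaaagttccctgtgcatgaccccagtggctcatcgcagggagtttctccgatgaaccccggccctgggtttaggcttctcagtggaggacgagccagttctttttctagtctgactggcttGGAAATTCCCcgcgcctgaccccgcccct
Tnfaip3: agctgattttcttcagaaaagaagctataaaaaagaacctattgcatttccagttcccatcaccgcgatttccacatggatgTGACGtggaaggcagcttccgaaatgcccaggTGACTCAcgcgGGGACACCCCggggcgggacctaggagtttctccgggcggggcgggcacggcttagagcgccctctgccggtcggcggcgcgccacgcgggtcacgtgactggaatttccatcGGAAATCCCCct

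The motifs were searched on both strands: the cyclic AMP response element (CRE, TGACGTCA), its core (TGACG, present on both strands of every CRE), the AP-1 site (TGANTCA), an EGR site (GCGNGGGCG), a TATA box (TATAAN), the CArG box of serum response factor, and the NF-kB consensus. In the Nr4a1 promoter, CRE cores began 233, 213, 69 and 40 bases before the start and an EGR site began at 60. The Nr4a3 promoter held 4 CRE cores, at 231, 213, 205 and 147 bases before the start. The Btg2 promoter held a full CRE at 166 and an EGR site at 131. Nfkbia held an NF-kB consensus at 29, and Tnfaip3 held 2, at 125 and 12, besides an AP-1 site at 136, a CRE core at 168 and a TATA box left in lower case.

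Across the 41 promoters of these genes, 58.5% held the CRE core, against 17.8% of all 32851 promoters of the same length. The full CRE was in 12.2%, against 1.55% of all, the EGR site in 24.4% against 4.70%, the NF-kB consensus in 22.0% against 3.90%, and the CArG box in 14.6% against 1.47%. AP-1 sites were in 7.32%, against 6.75%, and TATA boxes in 24.4%, against 22.7%. The CRE core was found in 18 of the 29 genes, among them Fos, Fosb, Junb, Egr2 and all 3 NR4A genes. These counts describe letters in a window, with no allowance for base composition or for genes with several starts.

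In NK-like cells the summed level of all 34 genes was 3115 CPM in control and 3109 CPM in DR, a log2 ratio of -0.003. Within that sum, Dusp2 and, at levels under 20 CPM each, the EGR and NR4A transcription factors were lower in DR. Klf6, Nfkbiz and Cd69 were higher. Fosb, Ier3 and Maff, each also under 20 CPM, were higher too (log2 1.48, 1.88 and 1.13). These levels pool all NK-like cells, and the mix of maturation stages, given below, differed between the libraries. The level was at least 20 CPM, averaged over both libraries, for 17 of the 34 genes; of these, a gene was called higher where DR exceeded control by 25% or more, and lower where it was 20% or more below it. By this rule 3 were higher (Klf6, Nfkbiz and Cd69), 1 was lower (Dusp2) and 13 lay between. Over all 5841 genes at this level, 3.13% were called higher and 7.94% lower. The median log2 ratio was 0.06 over the 17 genes and -0.07 over all genes.

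**Figure D1:**
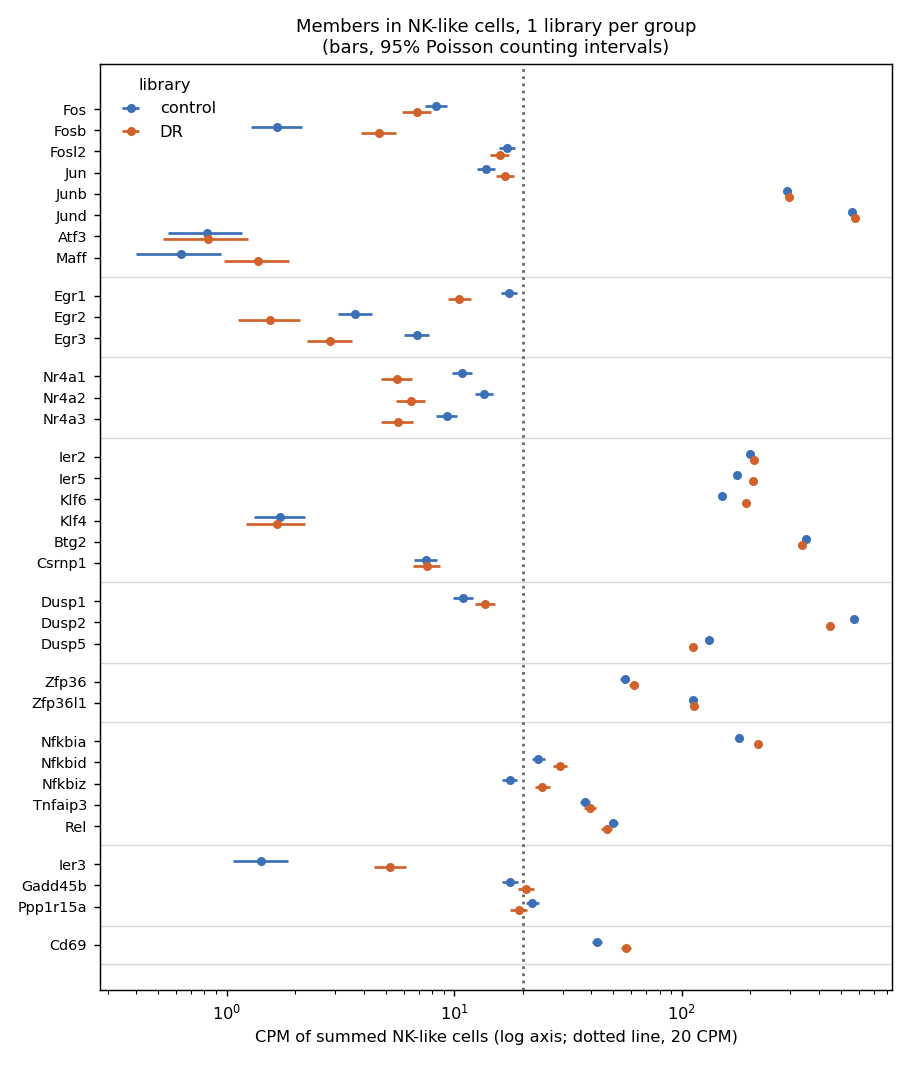
Level of each of the 34 genes in summed NK-like cells, in CPM on a log axis, by library, grouped from top to bottom as AP-1 and partners, EGR, NR4A, other nuclear genes, MAP kinase phosphatases, RNA decay factors, NF-kB genes, stress and survival genes, and Cd69. Points are 1 library each with 95% Poisson counting intervals; all 3 EGR and all 3 NR4A genes sit lower in DR, and each lies left of the 20 CPM line.

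Of the AP-1 factors, the proteins that pair to bind AP-1 sites, Junb stood at 290.5 CPM in control and 295 in DR, and Jund at 563 and 577. The other 6 were under 20 CPM. Fos had 304 UMIs in control and 190 in DR (8.33 and 6.87 CPM, log2 -0.28), Jun 505 and 462, and Fosl2 622 and 439. Fosb, a partner of the Jun proteins, had 61 and 129 UMIs, a log2 ratio of 1.48 (1.03 to 1.95) between 1.67 and 4.67 CPM. Atf3 had 30 and 23 UMIs and Maff 23 and 38. Of the Fos UMIs in control, 74.3% were in the 1% of NK-like cells richest in it, and 57 were in a single cell; without the 1% of cells richest in the 34 genes the Fos ratio turned to 0.71.

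The further nuclear genes included Klf6, a zinc finger factor, at 150 CPM in control and 191 in DR, a log2 ratio of 0.35 (0.29 to 0.40). Klf6 was called higher in DR also among the Cd27-only cells (0.49), the cells with both genes (0.53) and the cells with neither (0.49). Among Itgam-only cells it stood at 180 and 218 CPM. Btg2, an antiproliferative factor that promotes mRNA deadenylation, was at 350.2 and 336 CPM, Ier2 at 200.1 and 209, and Ier5 at 176 and 206. Csrnp1 (7.50 and 7.60 CPM) and Klf4 (63 and 46 UMIs) were under the minimum. Csrnp1 lies inside the annotated span of Cx3cr1 on the same strand, and Dusp1 overlaps other annotated genes, so their counts are uncertain.

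Among the MAP kinase phosphatases, which switch off ERK, p38 and JNK, Dusp2 was at 571 CPM in control and 447 in DR, a log2 ratio of -0.35 (-0.39 to -0.32). This lay just past the limit. The call ended with scaling by the median ratio of all genes (-0.29), with ribosomal and mitochondrial genes left out of the total (-0.29), with NK cells gated cell by cell (-0.31) and with the stages weighted equally (-0.28). Dusp5 was at 132 and 112 CPM (-0.24), and Dusp1 had 400 and 379 UMIs. The 3 phosphatases summed to 714 and 573 CPM. The RNA decay factors, which bind AU-rich sequences of cytokine mRNAs, differed little between the libraries: Zfp36 was at 56.1 and 61.5 CPM and Zfp36l1 at 112 and 114.

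The 5 NF-kB genes summed to 307 CPM in control and 356 in DR, a log2 ratio of 0.22 (0.18 to 0.26). Nfkbiz, a nuclear IkB protein that alters NF-kB target choice, was at 17.6 and 24.5 CPM and was called higher (0.48, 0.32 to 0.64). Nfkbid, also a nuclear IkB protein, was at 23.5 and 29.3 CPM (0.32, 0.18 to 0.46), and Nfkbia at 178 and 216 CPM (0.28, 0.23 to 0.33). Both lay short of the 25% limit, and both passed it under either alternative scaling. Tnfaip3, at 37.6 and 39.4 CPM, and Rel, the c-Rel subunit itself, at 50.03 and 46.8 CPM, were between the limits. Cd69, which retains lymphocytes in tissue, was at 42.3 and 57.1 CPM (0.43, 0.33 to 0.53). Within stages it was called higher among Itgam-only cells (0.55). It was not called among Cd27-only cells (0.29), cells with both genes (0.25) or cells with neither (0.30).

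Of the stress and survival genes, Gadd45b was at 17.6 and 20.7 CPM and Ppp1r15a, which restores translation after stress, at 22.1 and 19.3 CPM. Ier3 had 52 UMIs in control and 145 in DR (1.42 and 5.25 CPM), a log2 ratio of 1.88 (1.42 to 2.37). Its UMIs were spread over 43 and 117 cells, with at most 2 and 4 in a cell. Since B cell markers were also higher in DR NK-like cells, the ratios were taken again without cells carrying 2 or more UMIs of other lineages. Klf6 then had a log2 ratio of 0.37, Nfkbiz of 0.48, Cd69 of 0.43 and Dusp2 of -0.34. Cells with fewer such UMIs stayed in, so RNA of other cells spread thinly over many cells was not removed. In B-like cells Ier3 had 0 UMIs in both libraries, and Fosb stood at 16.5 CPM in control and 22.3 in DR. In DR, Ier3 stood at 4.54 CPM in ILC1-like and 4.02 in T-like cells, and Fosb at 1.95 and 2.56. The part of such RNA in these ratios was not tested.

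Stages of NK maturation were marked by Cd27, lost during maturation, and Itgam (CD11b), gained during it. In control, 664 NK-like cells had UMIs of Cd27 only, 1044 of both, 2239 of Itgam only and 758 of neither. The corresponding DR numbers were 932, 933, 1579 and 1072. Cells with neither were shallower, so that group also holds cells in which the genes were missed. Cd27-only and Itgam-only cells, with no UMI of the other gene, can likewise be cells in which it was missed. Their median depths were 9076 and 6664 UMIs in control, and 7038 and 5021 in DR. From Cd27-only to Itgam-only cells, Dusp2, Btg2, Klf6, Ier2 and Tnfaip3 were higher and Cd69 was lower in both libraries, so the genes did not share 1 direction across the stages.

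In control, 5 of the 17 genes at 20 CPM or more were higher in Itgam-only cells and 6 were lower, beside 21.0% and 11.8% of all 5875 genes. In DR, 6 of 16 were higher and 1 was lower, beside 18.1% and 7.23% of all 5824 genes. The sum of all 34 was 2882 CPM in Cd27-only and 3296 in Itgam-only control cells (log2 0.19), and 2819 and 3321 in DR (0.24).

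Dusp2 stood in control at 358 CPM in Cd27-only cells, 498 in cells with both, 698 in Itgam-only cells and 604 in cells with neither. In DR it stood at 330.4, 401, 557 and 486 CPM. The log2 ratio of Itgam-only over Cd27-only cells was 0.96 (0.90 to 1.03) in control and 0.75 (0.68 to 0.82) in DR. Btg2 went from 244 to 424 CPM in control and from 250.1 to 421 in DR, ratios of 0.80 and 0.75. Klf6 had ratios of 0.65 and 0.44, Tnfaip3 of 0.40 and 0.71, and Ier2 of 0.37 and 0.32. When NK cells were gated cell by cell instead of by cluster, Klf6 in DR (0.29) and Ier2 in both libraries (0.27 and 0.13) no longer passed the 25% limit.

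Cd69 was at 63.6 CPM in Cd27-only and 29.5 in Itgam-only control cells, a log2 ratio of -1.11 (-1.30 to -0.91). In DR it was at 77.9 and 43.2 CPM, a ratio of -0.85 (-1.05 to -0.66). In control, Nfkbia was at 235 CPM in Cd27-only and 151 in Itgam-only cells (-0.64, -0.73 to -0.54), whereas in DR it was at 211 and 199 (-0.08, -0.18 to 0.02). Nfkbid was lower in Itgam-only cells of control (-0.67) and level in DR (0.01), and Rel had ratios of -0.55 and -0.16. Whether these ratios differ between conditions was not tested, since each library is 1 sample. Over the 15 genes at 20 CPM in both, 14 had the same sign of the stage ratio in both libraries (Pearson r 0.92, Spearman rho 0.94, across genes); over all 5659 genes 81.8% did (r 0.88, rho 0.79).

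**Figure D2:**
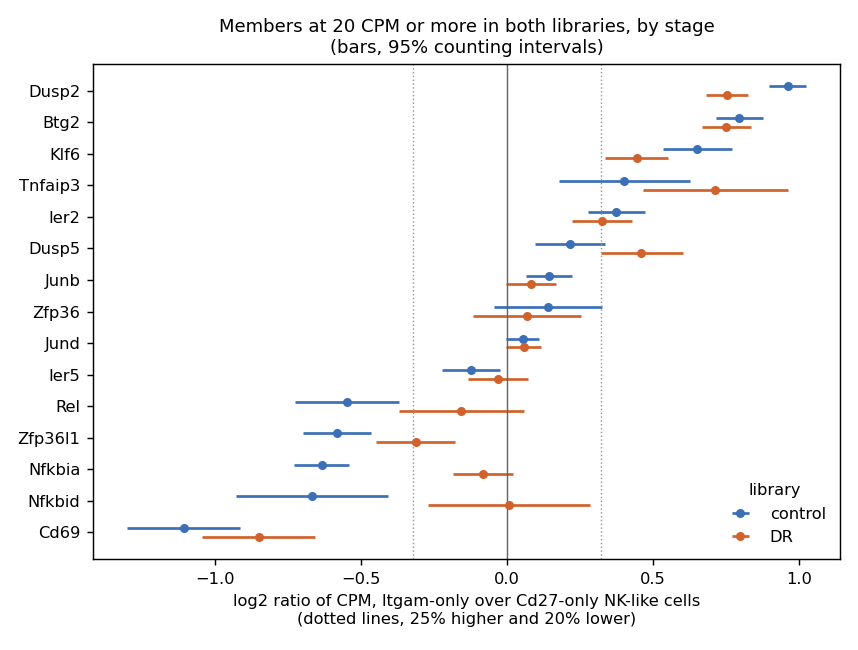
Log2 ratio of CPM in Itgam-only over Cd27-only NK-like cells for the 15 genes at 20 CPM or more in both libraries, with 95% counting intervals. Dusp2, Btg2, Klf6, Tnfaip3 and Ier2 lie past the right dotted line in both libraries and Cd69 past the left one; Rel, Zfp36l1, Nfkbia and Nfkbid lie past the left line in control and not in DR.

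Within stages, DR against control, the calls were few. Among Cd27-only cells, 1 of 18 genes was higher (Klf6) and 3 were lower (Egr1, Dusp5 and Rel), beside 4.34% and 11.1% of all genes. Among cells with both, 4 of 17 were higher (Ier5, Klf6, Nfkbia and Nfkbiz) and 0 lower, beside 4.98% and 10.6%. Among Itgam-only cells, 3 of 16 were higher (Nfkbia, Nfkbid and Cd69) and 1 lower (Dusp2), beside 4.55% and 8.33%. Among cells with neither, 3 of 17 were higher (Klf6, Nfkbid and Gadd45b) and 0 lower, beside 4.83% and 10.4%. These 4 comparisons come from the same 2 libraries.

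The EGR and NR4A genes encode transcription factors induced by antigen receptor and calcium signals, and in lymphocytes Nr4a1 serves as a reporter of such signals. Each was under 20 CPM in NK-like cells, and each was lower in DR. Egr1 was at 17.4 CPM in control and 10.6 in DR (log2 -0.72), Egr2 at 3.67 and 1.56 (-1.24), and Egr3 at 6.87 and 2.86 (-1.27). Nr4a1 was at 10.9 and 5.61 CPM (-0.96), Nr4a2 at 13.5 and 6.44 (-1.07), and Nr4a3 at 9.28 and 5.64 (-0.72). All 6 intervals lay under 0, but they count UMIs as independent and leave out the spread between cells. In control, the 1% of NK-like cells richest in each gene held from 50.2% (Nr4a2) to 90.4% (Egr3) of its UMIs. Without the 1% of cells richest in the 34 genes, the Egr1 and Egr2 ratios were both -0.20. Together the 6 genes stood at 61.7 CPM (59.1 to 64.3) in control and 32.7 (30.6 to 34.9) in DR, a log2 ratio of -0.92 (-1.03 to -0.80).

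The 6 genes summed to 110.2 CPM in Cd27-only, 64.1 in cells with both, 40.0 in Itgam-only and 60.9 in cells with neither, in control. In DR these levels were 37.4, 24.9, 28.6 and 41.9 CPM. DR was lower in each of the 4 stages, with log2 ratios of -1.56, -1.36, -0.48 and -0.54. In ILC1-like cells the order was the opposite, 47.8 CPM in control and 91.4 in DR, and in B-like cells the levels were 28.1 and 33.8. In ILC1-like cells, 40 of the 102 Egr3 UMIs of DR came from a single cell, and all of them lay in 13 of 411 cells.

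**Figure D3:**
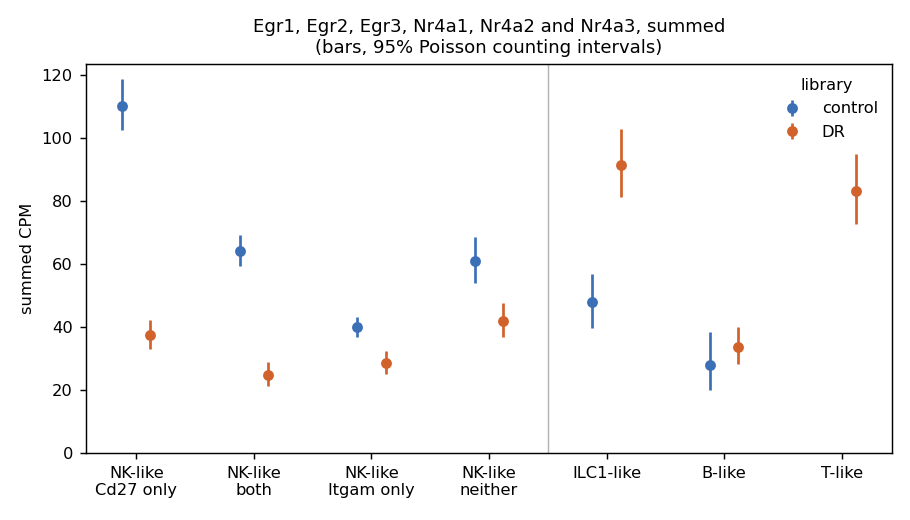
Summed CPM of Egr1, Egr2, Egr3, Nr4a1, Nr4a2 and Nr4a3 by NK stage and by cell class, 1 point per library with a 95% Poisson counting interval; classes under 50 cells are left out. Control lies above DR in the 4 NK-like groups, most in Cd27-only cells (110.2 against 37.4 CPM), and below it in ILC1-like cells.

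These UMIs were concentrated in few cells. In control, 4100 of 4705 NK-like cells (87.1%) had no UMI of the 6 genes, and 29 cells held 50% of the 2252 UMIs, with 170 in a single cell. In DR, 4128 of 4516 (91.4%) had none, and 43 cells held 50% of the 903 UMIs, with at most 39 in a cell. Cells with 5 or more such UMIs numbered 73 in control (1.55%, exact interval 1.22 to 1.95) and 35 in DR (0.775%, 0.540 to 1.08). They held 66.1% and 46.6% of the UMIs. This limit was set after the data were seen; 22 control and 11 DR cells had 1 UMI fewer, and 7 and 6 cells were at the limit. With each cell thinned to 3000 UMIs and a limit of 3, the shares were 1.43% (1.10 to 1.82) and 0.721% (0.490 to 1.02).

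In control the rich cells made up 3.92% of Cd27-only, 2.30% of cells with both, 0.849% of Itgam-only cells and 0.528% of cells with neither. In DR the shares were 1.07%, 0.965%, 0.570% and 0.653%. By cluster, 28 of the 73 control cells lay in the Ccl4-led cluster, 21 in the Ccr2-led, 12 in the Cx3cr1-led and 12 in a Batf3-led cluster. These clusters held 24.97%, 15.9%, 40.3% and 4.70% of all control NK-like cells. In DR, 8, 11, 4 and 8 of the 35 rich cells lay in them, beside 7.04%, 31.8%, 21.2% and 5.62% of NK-like cells. Without the rich cells, the 6 genes stood at 21.4 CPM in control and 17.7 in DR, a log2 ratio of -0.27 (-0.44 to -0.11). The cells left out were chosen by UMIs of these 6 genes and held a larger share of them in control. A smaller difference without them therefore follows from the choice.

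The 6 genes were found together more often than independence gives, although most cells with a UMI of 1 of them lacked the others. At 3000 UMIs, 303 control cells had at least 1 of the 6 genes, 58 at least 2 and 34 at least 3, and in DR the numbers were 216, 28 and 11. Among cells thinned to 3000 UMIs, Egr1 and Nr4a1 were together in 21 control cells, where independent detection gives 1.33, and in 7 DR cells, against 0.576. Egr3 and Nr4a1 were together in 18 control cells against 0.538, and in 7 DR cells against 0.215. All 15 pairs exceeded independence in control; in DR 14 did, and Egr2 with Nr4a3 was seen in 0 cells against 0.160 expected.

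Genes that did not choose the rich cells also differed in them. Of the effector genes, the chemokine gene Ccl4 was at 7237 CPM in rich and 233 in other control cells, and at 5908 and 187 in DR. Ccl3 was at 2947 and 102 CPM in control and 1345 and 66.1 in DR. Xcl1 and Ifng, like Myc, Klf2 and Ccl5 in the plot of rich against other cells, named after their values were seen, were 14.1 and 8.35 times higher in control, and 11.7 and 3.71 times in DR. Gzmb, encoding granzyme B, was lower in rich cells, at 438 against 796 CPM in control and 322 against 584 in DR.

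Among the other genes described here, Nfkbid was at 165 CPM in rich and 20.5 in other control cells, and at 228 and 26.8 in DR. Cd69 was at 239 and 38.3 CPM in control, and at 236 and 54.8 in DR. Nfkbia, Rel, Gadd45b and Nfkbiz were 3.78 to 5.46 times higher in control and 4.10 to 6.65 times in DR. Klf6 went the other way, at 118 against 151 CPM in control and 88.3 against 192 in DR. Median depth was 9501 UMIs in rich and 7030 in other control cells, and 9164 and 5405 in DR. Stage differed too. In control 26 of 73 rich cells were Cd27-only, beside 664 of all 4705 NK-like cells. In DR 10 of 35 were, beside 932 of 4516. Gzmb in DR stood at 285 CPM in Cd27-only and 850 in Itgam-only cells, and Klf6 in control at 114 and 180. The parts of depth and stage in these levels were not tested.

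**Figure D4:**
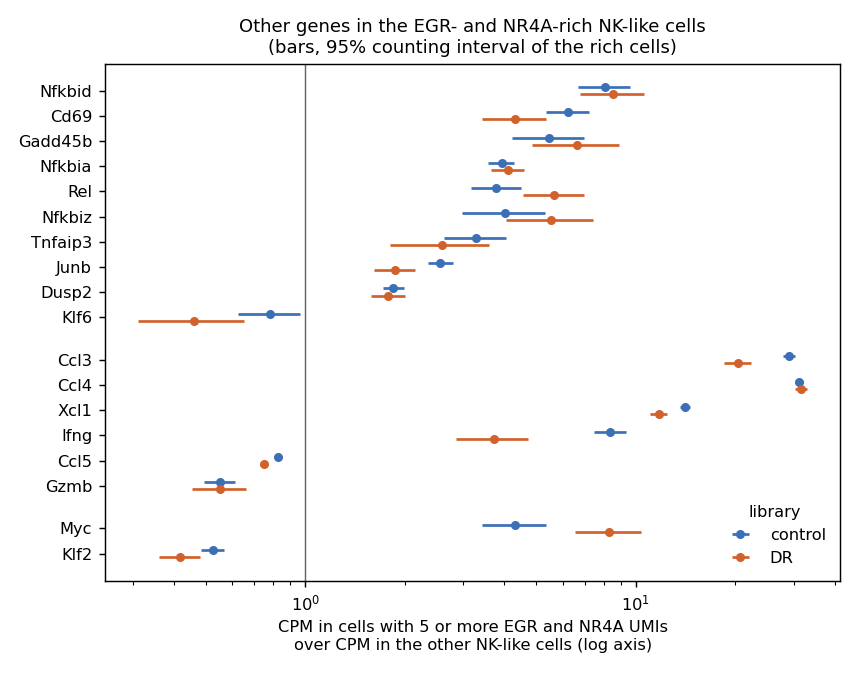
Ratio of CPM in NK-like cells with 5 or more EGR and NR4A UMIs (73 control, 35 DR) over the other NK-like cells, on a log axis, for 10 of the genes described here (top), 6 effector genes (middle) and Myc and Klf2 (bottom); bars are 95% counting intervals of the rich cells only. Ccl3, Ccl4 and Xcl1 lie above 10 in both libraries, whereas Klf6, Ccl5, Gzmb and Klf2 lie below 1.

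Across cell classes, the NF-kB genes were higher in ILC1-like than in NK-like cells, and Dusp5 and Btg2 were lower, in both libraries. In control, 8 of 18 genes at 20 CPM were higher in ILC1-like cells and 3 were lower, beside 17.1% and 13.2% of all genes. In DR, 9 of 19 were higher and 3 lower, beside 15.7% and 11.0%. All 5 NF-kB genes were called higher in both libraries. The interval of Nfkbid in control (0.33, -0.03 to 0.67) crossed 0.

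Nfkbia was at 463 CPM in ILC1-like and 178 in NK-like cells of control (log2 1.38, 1.29 to 1.47), and at 449 and 216 in DR (1.05, 0.97 to 1.14). Rel was at 76.5 and 50.03 CPM in control and 77.2 and 46.8 in DR. Gadd45b, which guards against death signals, was at 49.7 and 17.6 CPM in control and at 56.8 and 20.7 in DR. Zfp36l1 was at 222 and 112 CPM, and at 199 and 114 in DR. Tnfaip3 was at 53.6 and 37.6 CPM in control and 50.6 and 39.4 in DR.

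Dusp2 had opposite ratios in the libraries. It was at 380.3 CPM in ILC1-like and 571 in NK-like control cells (-0.59), but at 627 and 447 in DR (0.49). It was found in 221 of 296 control ILC1-like cells, with at most 28 UMIs in a cell, and in 340 of 411 DR cells, with at most 35. After thinning to 3000 UMIs, 49.5% (43.6 to 55.4) of control and 68.9% (64.1 to 73.4) of DR ILC1-like cells had a Dusp2 UMI, against 74.7% and 82.7% unthinned. DR against control in ILC1-like cells, 4 of 19 genes were higher (Egr3, Dusp2, Nfkbid and Nfkbiz) and 0 lower, beside 7.34% and 13.3% of all genes; the interval of Nfkbiz (0.33, -0.13 to 0.80) crossed 0.

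In control B-like cells, 7 of 17 genes were higher than in NK-like cells and 7 lower, beside 19.0% and 48.5% of all genes; in DR 6 of 18 were higher and 8 lower, beside 16.7% and 46.6%. Zfp36l1 was at 506 CPM in control and 413 in DR B-like cells, and Rel, a factor B cells need for proliferation, at 187 and 148. Dusp5 was at 13.0 and 12.3 CPM, and Tnfaip3 at 10.8 and 9.22, both under the NK-like levels. DR against control in B-like cells, Jun (25.9 and 45.6 CPM) and Nfkbid were higher and Ier2 and Rel lower, of 17 genes, beside 8.74% and 18.1% of all genes. In T-like cells of DR, 5 of 18 genes were higher and 8 lower than in NK-like cells, beside 12.3% and 45.9% of all genes. Egr1 was at 44.9 CPM in T-like and 10.6 in NK-like cells, with its UMIs in 41 of 312 cells, and Cd69 at 137 and 57.1.

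**Figure D5:**
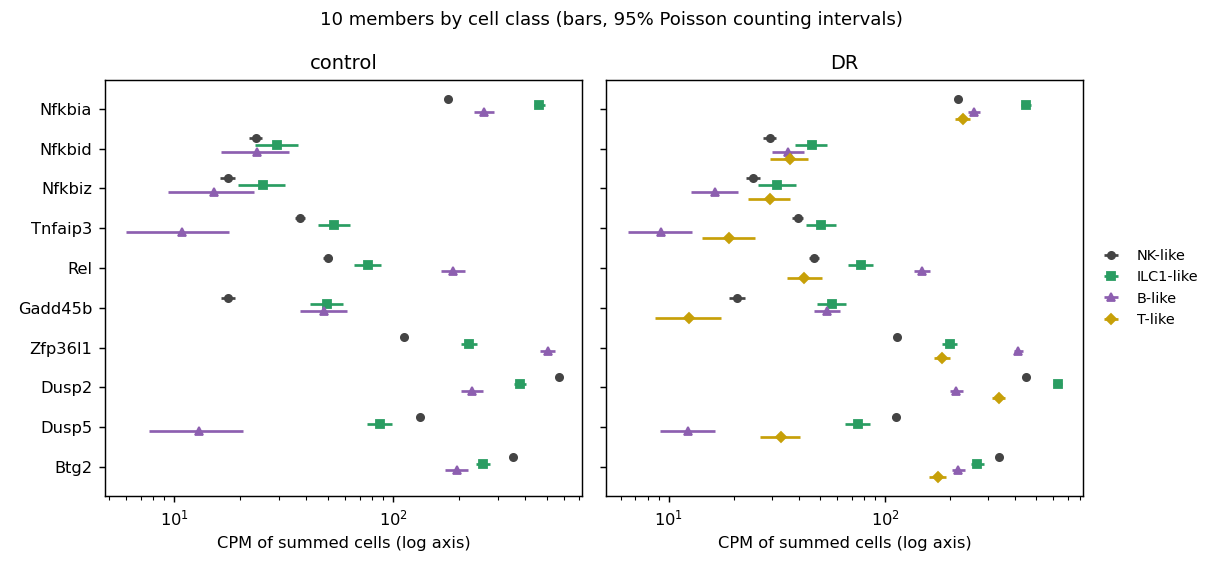
CPM of 10 of the genes in summed NK-like, ILC1-like, B-like and T-like cells of each library, on a log axis with 95% Poisson counting intervals; T-like cells of control (4 cells) are left out. The ILC1-like level exceeds the NK-like level for Nfkbia, Nfkbid, Nfkbiz, Tnfaip3, Rel, Gadd45b and Zfp36l1 in both libraries, and for Dusp2 in DR only.

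Per cell, at 3000 UMIs, NK-like cells had UMIs of 5.64 of the 34 genes in control (SD over 4420 cells 2.15) and of 5.73 in DR (SD over 4299 cells 2.14). The thinning left out 285 control and 217 DR cells. At least 8 genes were found in 16.8% (15.7 to 17.9) of control and 17.9% (16.8 to 19.1) of DR cells, against 70.2% and 58.8% unthinned. The unthinned order of the libraries was the reverse, at median depths of 7067 UMIs in control and 5416 in DR. The share was 21.6% in control and 23.7% in DR ILC1-like cells, 21.6% and 22.4% in B-like cells, and 9.80% (6.71 to 13.7) in T-like cells of DR. As a sign of NK cell RNA in other cells, the NK gene Ncr1 was followed in B-like cells. At the same depth it had a UMI in 9.48% of control and 3.53% of DR B-like cells, against 25.8% and 9.82% unthinned. Free RNA and doublets that were not called cannot be told apart by these shares.

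Pairs of the genes were seen together slightly more often than independence gives. Of the 34, 24 were found in at least 2% of control and 22 of DR cells, giving 276 and 231 pairs. The median log2 of observed over expected cells was 0.10 in control and 0.08 in DR, with 82.2% and 80.1% of pairs above independence. Over all gene pairs it was 0.002 in both, with 51.3% above. Jun and Cd69 were together in 30 control cells (12.3 expected) and 32 DR cells (22.8 expected). Nfkbid and Nfkbiz were together in 23 cells (12.2 expected) and 30 cells (21.5 expected), and Tnfaip3 and Cd69 in 63 (37.4 expected) and 83 (55.7 expected). Ranking kept only the 215 pairs found together in a minimum number of cells of each library, which leaves out the pairs seen together least. Of these 215, Dusp1 and Rel stood last, in 14 control cells (18.4 expected) and 16 DR cells (19.0 expected).

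Outside the 34 genes, the number of them found per cell tracked most closely with Tagap, Irf8, Pim1, Kdm6b, Icam1, Nfkbie, Prf1, Ifng, Bcl3 and Bhlhe40, among 8073 genes. Correlations across thinned NK-like cells were low, from 0.132 as the mean of both libraries for Tagap to 0.0859 for Bhlhe40; the median over all genes was 0.00416.

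Of 67 further pathway genes (NF-kB subunits and kinases, MAP kinases, ternary complex factors, EGR co-repressors and others), 49 reached 20 CPM in NK-like cells. DR against control, 2 were higher and 4 lower, beside 3.13% and 7.94% of all genes. Map3k8, a kinase of the ERK pathway, was at 21.3 and 28.4 CPM, and Klf10 at 31.9 and 42.0. Nab1 and Nab2, co-repressors that bind EGR proteins and are themselves EGR targets, were at 124 and 79.9 CPM and at 29.99 and 23.0 CPM. Dusp22 was at 44.7 and 26.4 CPM and Elk3, a ternary complex factor, at 119 and 87.8. Map2k1, the ERK kinase MEK1, at 29.6 and 23.9 CPM, and Relb, an NF-kB subunit, at 31.2 and 38.4 CPM, had the next largest ratios and lay between the limits. The median log2 ratio of the 49 was -0.03.

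Of 10 effector genes, 7 reached 20 CPM. In DR 0 were higher and 4 lower, beside 3.13% and 7.94% of all genes. The 4 were Ccl3 (159 and 82.3 CPM), Ccl4 (374 and 259.9), Tnfrsf9 (92.1 and 65.9) and Gzmb (789 and 581). Without the cells rich in EGR and NR4A UMIs, an alternative chosen after seeing the data, Ccl4 stood at 233 and 187 CPM and was no longer called (log2 -0.31, -0.36 to -0.26), and Ccl3 had a ratio of -0.62. Of 14 heat shock and ubiquitin genes, taken as signs of cell handling, 11 reached 20 CPM. Of these, 0 were higher and 1 lower, beside the same shares of all genes. Hsph1 was lower in DR (33.5 and 17.3 CPM) and the other 10 lay between the limits, among them Hspa5 (346 and 282 CPM), Hspa8 (905 and 754) and Hspd1 (139 and 121). The heat-inducible genes Hspa1a and Hspa1b, named after their values were seen, had 0 and 4 UMIs in control and 1 and 3 in DR. The part of handling in the levels of the 34 genes was not tested.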

How the data were processed

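The authors deposited raw counts, 1 whole number of UMIs for each gene in each barcode. Per the file headers they came from Cell Ranger (version 5.0.1; the submitters' processing notes name 2.1.1 and build mm10). Barcodes under 500 genes or over 10% mitochondrial UMIs were dropped (215 and 167). Doublets were scored per library as Scrublet does and the highest scores removed at 0.8% per 1000 cells, with all cells tied at the limiting score (267 and 310 cells), a rule chosen after the data were seen. Both libraries were clustered together (scanpy 1.11.5, Leiden resolution 0.6, 2000 variable genes without the 34 genes, 30 principal components, 15 neighbours). A cluster was named when at least 3 markers and 50% of a list were at 20 CPM and at 25% of the highest cluster's level, unless it met this for 2 lineages, had more markers of another class among its 10 leading genes, or was shallow with none of its own markers there. Counts were summed per class and library (44526828 and 42134212 UMIs in all control and DR barcodes) and given as CPM, with exact Poisson intervals; ratios have exact conditional binomial and shares exact Clopper-Pearson intervals, all at 95%. Thinning drew 3000 UMIs per cell. Genes had to average 20 CPM, and calls rest on the ratio only. The 34 genes and the lists were chosen with earlier results of these data known. All 34 are accounted for; up to 8 pathway, 4 effector and 4 handling genes were named by largest ratio, and the 10 genes most correlated with the number of the 34 found per cell. The calculations were tested on simulated data. Alternatives are given in the closing section. Free RNA could not be subtracted, since the shallowest barcode held 501 UMIs. Gene coordinates and overlaps came from GENCODE on mm10.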

Additional observations from a re-analysis of the deposited data

How the results depend on the processing

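No paired analysis was possible because each group is 1 library. For DR against control, the genes called higher (3) numbered 5 with median-of-ratios scaling, 5 with ribosomal and mitochondrial genes out of the total, and 7 with no minimum level. The genes called lower (1) numbered 0 under both scalings, with NK cells gated per cell and with stages weighted equally, 5 at a minimum of 5 CPM, and 7 with no minimum. The shares of all genes called under these alternatives, and under those for the stages below, were not computed. These counts therefore have no background beside them. The log2 ratio of all 34 genes (-0.003) was 0.0628 and 0.0558 under the 2 scalings, 0.0454 with gated cells, 0.0124 with thinned cells, 0.009985 without the 1% of cells richest in the genes, and, chosen after seeing the data, -0.0167 without cycling cells and 0.0127 without cells carrying other lineages' UMIs. The EGR and NR4A ratio (-0.92) was -0.76 with gated cells, -1.05 with stages weighted equally and -0.39 without the richest 1% of cells; chosen after seeing the data, it was -0.65 without the Batf3-led and Ccl4-led clusters and -0.27 without the rich cells. The rich cells were chosen by these same UMIs. For Itgam-only against Cd27-only cells in DR, the genes called lower (1) numbered 3 in cells of at least 5000 UMIs, 3 with at least 2 UMIs required and 2 without the richest 1%, and those called higher (6) numbered 3 with gated cells. The stage ratio of all 34 genes was 0.19, 0.29 and 0.16 in DR with at least 5000 UMIs, at least 2 UMIs and gated cells, and 0.26 and 0.24 in control with at least 2 UMIs and without the richest 1%. The control EGR and NR4A stage ratio (-1.46) was -1.78, -0.998 and -1.25 with at least 2 UMIs, without the richest 1% and with gated cells. With doublet calls kept, the B-like against NK-like ratio of all 34 genes in DR was -0.071. Cells with at least 8 genes were 5.05% of control and 6.27% of DR cells at 2000 UMIs, 47.1% and 48.8% at 5000, 70.2% and 58.8% unthinned, and 15.2% of control with gated cells. The cause of these shifts was not tested. No called value turned in direction; ratios that were not called did, among them the sum of all 34 genes, Fos without the richest 1% (0.71) and Btg2 (-0.06) with median-of-ratios scaling (0.006846). With 1 library per group, depth limits the counting intervals only, and the spread between mice is unknown.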

Other observations

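Cycling NK-like cells, a cluster led by histone genes and Mki67, had a lower summed level than NK-like cells as a whole. In sum, all members of the list of 34 stood at 1684 CPM in the 139 cycling cells of control and at 1553 in the 75 of DR, against 3115 and 3109 over all NK-like cells. Btg2 was at 145 CPM in control and 102 in DR, Junb at 130.1 and 106, Jund at 347 and 282, and Dusp2 at 281 and 203. At 3000 UMIs, at least 8 of the genes were found in 1 of 101 control cells (exact interval 0.0251 to 5.39%) and in 3.51% (0.428 to 12.1) of 57 DR cells, against 62.6% and 36.0% unthinned. The cluster had a median of 15055 UMIs, and 38 control and 18 DR cells of it were under 3000.

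A small cluster led by Cxcl10, Ifit1 and Isg15, with 31 control and 22 DR cells, had a higher sum over all members, 4382 and 4098 CPM. Nfkbia was at 446 CPM in control and 441 in DR, Junb at 584 and 422, Jund at 940.1 and 1042, and Cd69 at 337 and 147. Dusp2, at 296 and 345 CPM, and Btg2, at 232 and 230.2, were below the level of all NK-like cells. Cells of a cluster share the genes that define it, and none of these values was tested.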
